A study of Mus musculus with 11 samples.

Results

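The mitochondrial respiratory chain and ATP synthase are built from proteins encoded in both the nuclear and the mitochondrial genome, and the members described here are the nuclear-encoded ones. They were taken as the protein-coding genes of GRCm38 (GENCODE M21) whose symbols begin with Nduf, Uqcr, Atp5 or Cox followed by 4 to 8, together with Sdha, Sdhb, Sdhc, Sdhd, Cyc1 and Cycs. This gave 96 members among the 54838 genes in the files, with 36 in complex I, 4 in complex II, 9 in complex III, 1 for cytochrome c, 20 in complex IV, 17 in complex V and 9 assembly factors. Symbols that matched the rule but were not protein-coding, 13 in number, were left out. Ndufa4 and Ndufa4l2 carry complex I names and were placed with complex IV, where the NDUFA4 protein is found. Expression was above the low-count filter of more than 1 CPM (counts scaled to a library of 1e+06) in at least 4 libraries for 89 members, which were tested among 16073 genes.

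Total RNA was sequenced from E14 mouse embryonic stem cells (ESCs), a line grown with LIF, 36 h after siRNA transfection. There were 3 libraries of control scramble siRNA, 4 of CMTR1 siRNA 1 and 4 of CMTR1 siRNA 2. CMTR1 methylates the first transcribed nucleotide of capped RNA, and the comparison asks how its depletion changes transcript levels. The methods give 3 biological replicates for sequencing and the labels do not say which libraries came from separate cultures, so p-values measure the spread between these libraries. Knockdown was transient, no gene was edited, and all groups share the line, the medium and the transfection.

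Complex I takes electrons from NADH, complex II from succinate, and both pass them through ubiquinone to complex III. Cytochrome c carries them on to complex IV, which reduces oxygen, and the proton gradient that results drives ATP synthesis by complex V. Naive ESCs combine this respiration with high glycolysis, and several complex IV subunits exist as isoforms used in different tissues.

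Libraries held 6738478 to 8382318 counted reads. A two-sided exact permutation test of these totals against control gave p = 0.457 for siRNA 1 and 0.857 for siRNA 2. With 3 and 4 libraries no such p can be under 0.0571. Cmtr1 itself, the targeted gene, was at 21.3, 21.7 and 17.9 CPM in control libraries, and, by siRNA 1 replicate, at 21.1, 21.3, 16.2 and 18.04 CPM, while siRNA 2 libraries were at 15.6, 16.8, 16.5 and 19.5 CPM. Its log2 fold changes were −0.09 ± 0.11 (SE) for siRNA 1 (adjusted p = 0.743) and −0.25 ± 0.11 for siRNA 2 (adjusted p = 0.144), so its count did not separate the libraries labelled siRNA 1 or siRNA 2 from control. Of its exon bases, 36.3% also lie in exons of Gm28043 or Gm28052 on the same strand. The names control, siRNA 1 and siRNA 2 stand below for the libraries so labelled, and every direction given rests on those labels. The 8 ESC markers examined, among them Pou5f1 and Sox2, were all expressed, and 5 were called lower with siRNA 1 and 3 with siRNA 2, among them Nanog (log2 fold changes −0.57 and −0.54) and Esrrb (−0.34 and −0.55). Markers of other cells (14 genes, 11 tested) summed to 99.7 to 110 CPM in control, 97.8 to 127 CPM with siRNA 1 and 105 to 116 CPM with siRNA 2. Sox1 (32.06 CPM), Neurod1 (13.92 CPM) and Col1a2 (10.85 CPM) had the highest control means of this list. Only the leukocyte gene Ptprc and the hepatocyte gene Alb had no read in any control library. Col1a1 was the marker of this list called with siRNA 2, with a log2 fold change of 0.75 ± 0.13, and between the siRNAs Col1a1 (0.76) and Pax6 (−0.68), of neural progenitors, differed. The part of these marker changes in the members' values was not tested, and in bulk RNA fewer cells of a type and less RNA per cell cannot be told apart.

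In control ESCs the members were abundant transcripts. Level was expressed as CPM per kilobase of the main transcript, chosen by RefSeq match, APPRIS rank, support level and then shortest length, so that genes could be compared. The median of the 89 members was 56.9 CPM per kb against 7.12 for all genes tested, and the median member stood at percentile 91.8. By group the medians were 148 for complex IV, 104 for complex V, 95.6 for complex III, 54.1 for complex II and 45.1 for complex I, in the same unit. The assembly factors, which build complexes without remaining in them, had a median of 10.1 CPM per kb, at percentile 58.3.

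The highest member was Atp5b, the catalytic beta subunit of ATP synthase, at 575 ± 0.54 CPM per kb (SD, n = 3). Cox4i1, the regulatory subunit of complex IV, followed at 377 ± 9.97 and Atp5a1, the alpha subunit beside Atp5b, at 297. At the other end of complex IV, Cox7a1, the isoform of heart and skeletal muscle, was at 6.40 ± 0.73 CPM per kb, 58.8-fold below Cox4i1. Ndufa7 was highest in complex I at 161 ± 4.7, and Ndufb4 lowest at 7.55 ± 0.73. Sdha, the flavoprotein of succinate dehydrogenase, led complex II at 65.7 ± 0.93, with the membrane anchor Sdhc at 17.0 ± 0.65. Levels within complex III differed least among the larger complexes, from Uqcrq at 44.8 ± 3.55 to Uqcr10 at 129 ± 4.38, a 2.88-fold range. Atp5o was lowest in complex V at 52.4 ± 3.39 CPM per kb, and Cycs, cytochrome c, was at 11.6 ± 0.78. Among assembly factors the range was from 4.77 ± 0.76 for Atp5s to 22.7 ± 1.27 for Ndufaf2. The length chosen matters for this order. With all annotated exons in the denominator, Ndufa2 was highest and Ndufb2 lowest in complex I, Sdhd highest in complex II, Cox6a1 highest in complex IV, Atp5l lowest in complex V and Ndufaf8 highest among assembly factors. Of the genes named, Ndufb4 has 17.2%, Atp5o 34.2%, Cycs 23.9% and Ndufaf2 63.2% of its 75-nt words in common with another gene, and reads that mapped to more than 1 place were set aside in counting.

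**Figure D1:**
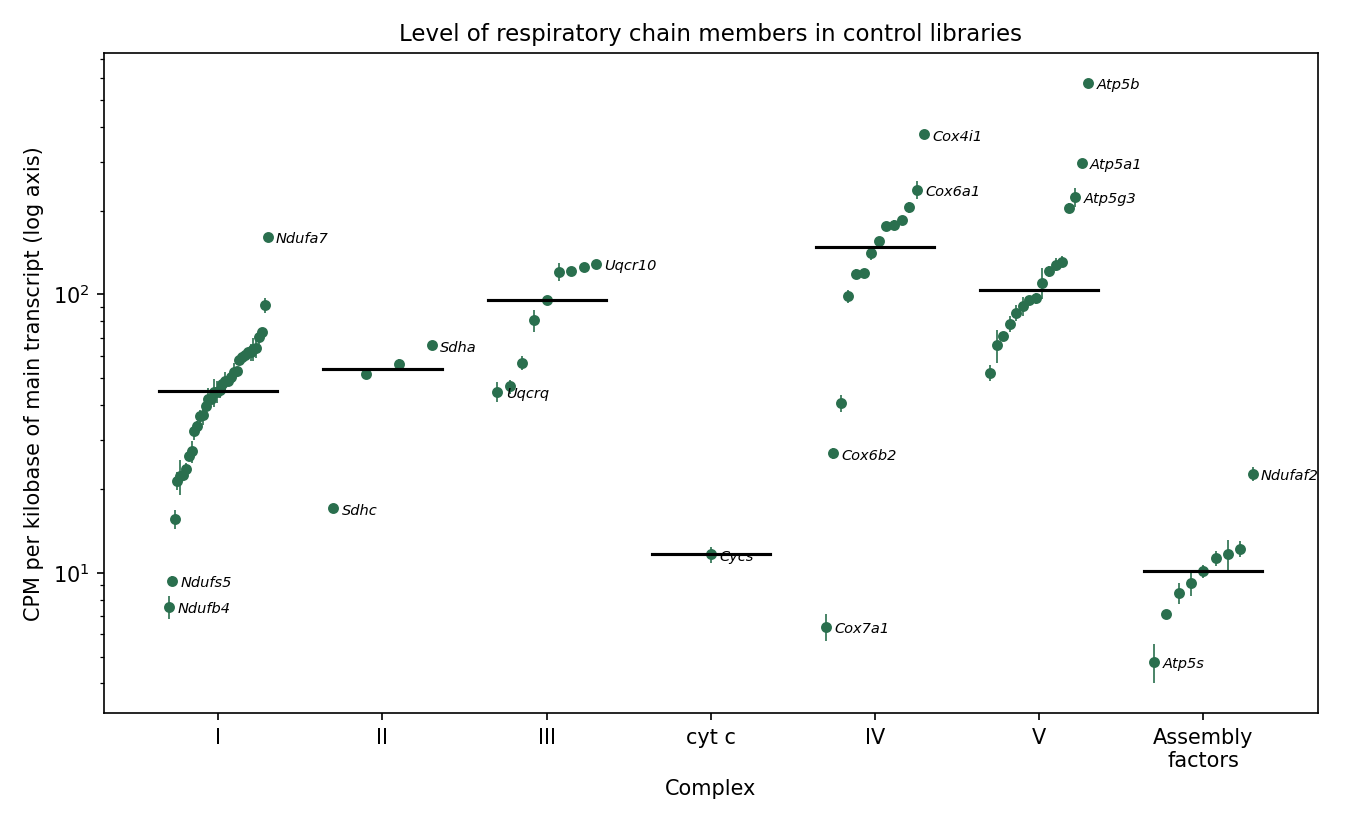
Level of the 89 tested members in the 3 control libraries, in CPM per kilobase of main transcript on a log axis, by complex. Points are means with SD and horizontal lines are group medians, which lie at 148 for complex IV and 10.1 for the assembly factors.

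The 7 members below the filter were mostly isoforms known from other tissues. Over all 11 libraries, 13 reads were counted for Cox4i2, an isoform of lung, and 9 for Cox6a2, of heart and skeletal muscle. Cox7b2 had 34 reads and Cox8c 37, both isoforms of testis, and Ndufa4l2, a paralog of Ndufa4 induced by hypoxia, had 22. No read was counted for Cox8b, which allows up to 0.0356 CPM over the pooled libraries by a floor of 3 counts, covering counting error only. A second gene identifier with the symbol Atp5o (ENSMUSG00000116933) also had no read, and its exon bases all overlap exons of Donson or of the first Atp5o entry.

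In each isoform set the ubiquitous form was the main one. Cox4i2 made up at most 0.146% of the reads of Cox4i1 and Cox4i2 in any library, and Cox6a2 at most 0.231% of those of Cox6a1 and Cox6a2. Cox7a1 made up 2.78% to 3.44% of Cox7a1 and Cox7a2 reads in control, 1.84% to 3.16% with siRNA 1 and 1.91% to 3.32% with siRNA 2. The supercomplex factor Cox7a2l (40.6 CPM per kb in control), Cox7b (98.8), Cox8a (185) and Ndufa4 (141) completed the expressed forms. Cox6b2, a form of Cox6b1 known mainly from testis, had the highest share of these minor forms, at 13.1% to 13.7% of the pair in control.

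Subunit c, the proton-carrying ring of ATP synthase, is encoded by Atp5g1, Atp5g2 and Atp5g3, whose mature protein is the same. The coding ends of the main transcripts translated to 75 identical final residues in all 3, while the 228 bases that encode them and the stop codon differed at 58 positions. Pairwise identity was 85.1% for Atp5g1 and Atp5g2, 79.8% for Atp5g1 and Atp5g3, and 78.5% for Atp5g2 and Atp5g3. The last 60 coding bases are shown because they spell the same residues in different letters. They lie in exon 5 of 5, on the minus strand of GRCm38 at chr11:96073104-96073163, chr15:102663014-102663073 and chr2:73908593-73908652, and capitals mark the 17 positions that are not the same in all 3.
Atp5g1: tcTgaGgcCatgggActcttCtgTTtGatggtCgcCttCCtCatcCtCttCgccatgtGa
Atp5g2: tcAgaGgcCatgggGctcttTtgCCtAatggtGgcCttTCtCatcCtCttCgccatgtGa
Atp5g3: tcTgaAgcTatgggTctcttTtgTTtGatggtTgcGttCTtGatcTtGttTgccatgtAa
Atp5g3 gave 45.0% to 49.7% of the reads of the 3 genes in control, Atp5g1 35.01% to 38.5% and Atp5g2 14.9% to 16.5%. With siRNA 2 the share of Atp5g3 was 44.1% to 47.0% and that of Atp5g1 38.2% to 39.6%, and the ranges overlapped those of control. Over the whole gene, 35.8% of the 75-nt words of Atp5g2 and 7.29% of those of Atp5g1 occur elsewhere, so the Atp5g2 share is the least certain.

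With siRNA 1, 1 of the 89 members changed. Cox6b2 rose, and no member fell at an adjusted p of at most 0.05 by edgeR's quasi-likelihood test. DESeq2 and edgeR's exactTest called the same single gene. In the quasi-likelihood test, 8 of the 89 members and 2698 of the 16073 genes tested had an unadjusted p under 0.05. Over all genes tested 4.67% were called, 1.97% lower and 2.71% higher, so the share of members, 1.12%, was below the background. With siRNA 2, 7 members were called, or 7.87% of them, beside a background of 9.72%. Of these, 5 fell (background 3.55%), namely Sdhb, Cox4i1, Cox6a1, Atp5g3 and Atp5j2, and 2 rose (background 6.17%), Ndufa12 and Ndufaf4. Without siRNA 2 replicate 3 the split was 3 lower and 4 higher, with Sdhb and Atp5g3 lost and Cycs and Atp5f1, a stalk subunit of ATP synthase, gained (both higher). With TMM factors in place of library size the split was 7 lower and 1 higher, and DESeq2 called 5 lower and no member higher. Tested directly, Sdhb, Cox4i1, Cox6a1, Cox6b2 and Atp5j2 were lower with siRNA 2 than with siRNA 1. For Cox6b2 the libraries of both siRNAs lay above all control libraries. These 5 members of 89 (5.62%) compare with a background of 2.96% lower, 4.49% higher and 7.44% in either direction. Here too leaving out siRNA 2 replicate 3 moved the split, to 4 lower and 2 higher (Cycs and Ndufaf4).

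The changes were small. The log2 fold change was within 0.2 of 0 in 83 members for siRNA 1 and 78 for siRNA 2, with a median SE of 0.07 in each. The median over members was 0.03 for siRNA 1 and −0.02 for siRNA 2, and that of all genes tested was 0.02 and 0.03. The siRNA 1 median was −0.0005 with DESeq2 and −0.0083 with a GC trend removed, and so had no firm sign. The siRNA 2 median was −0.05 with TMM factors or DESeq2 and −0.06 with a length or GC trend removed, and 0.0017 without siRNA 2 replicate 3. Members with a log2 fold change below 0 numbered 34 for siRNA 1 (38.2%, against 43.2% of all genes) and 53 for siRNA 2 (59.6%, against 42.9%). Between the siRNAs the median was −0.04, with 57 members below 0 (64.0%, against 49.5%). Both comparisons with control share the same 3 control libraries.

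**Figure D2:**
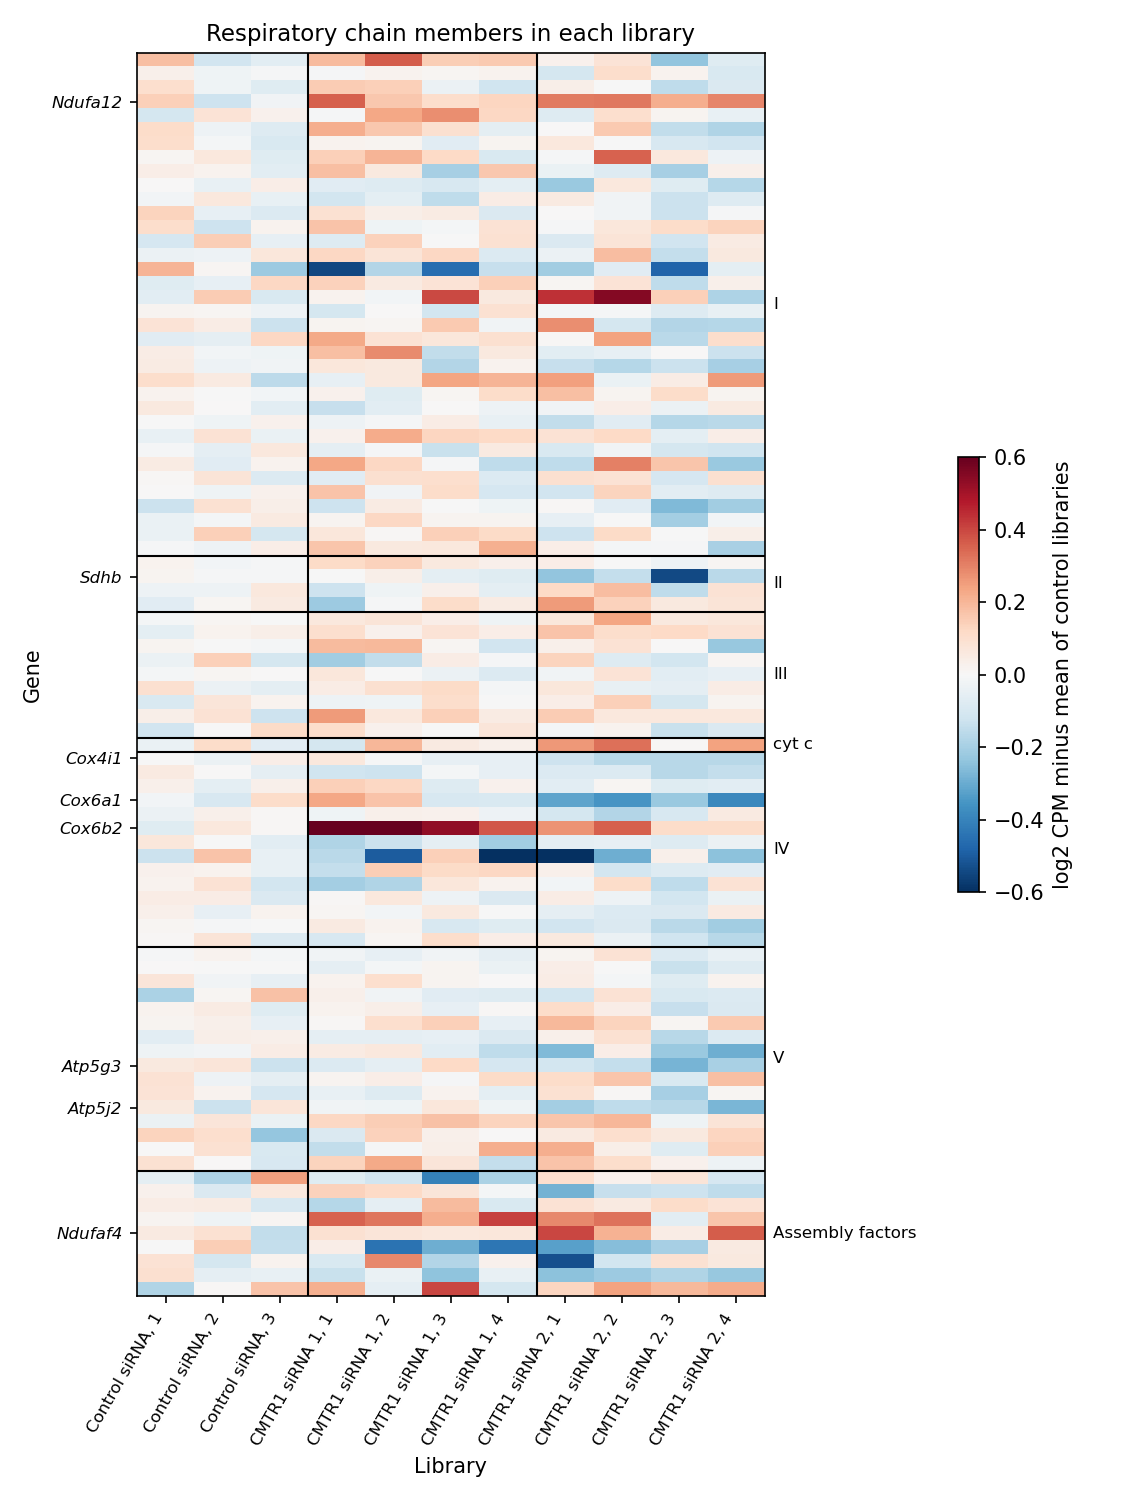
Log2 CPM of each tested member (rows, grouped by complex, with the 8 called members labelled) in each of the 11 libraries (columns), less the mean of the control libraries, with colours limited at 0.6 in either direction. Cox6b2 is high in all 4 siRNA 1 libraries, and Cox4i1 and Cox6a1 are low in all 4 siRNA 2 libraries.

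More members were separated from control by non-overlap of the libraries than by the test. With siRNA 1, 2 members (Ndufa7 and Atp5a1) had all 4 libraries below all control libraries, where 6.23% of all genes did, and 5 had them above (Ndufv3, Sdha, Cox6b2, Atp5k and Ndufaf3), where the background was 9.28%. With siRNA 2, 10 members were below control in all libraries (background 6.99%) and 6 above (background 12.4%). Set against siRNA 1, siRNA 2 libraries were all lower for 11 members (background 5.21%) and all higher for 0 (background 6.58%). Cox6b2 was the only tested member outside the control range in the same direction in all 8 libraries of the siRNAs.

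**Figure D3:**
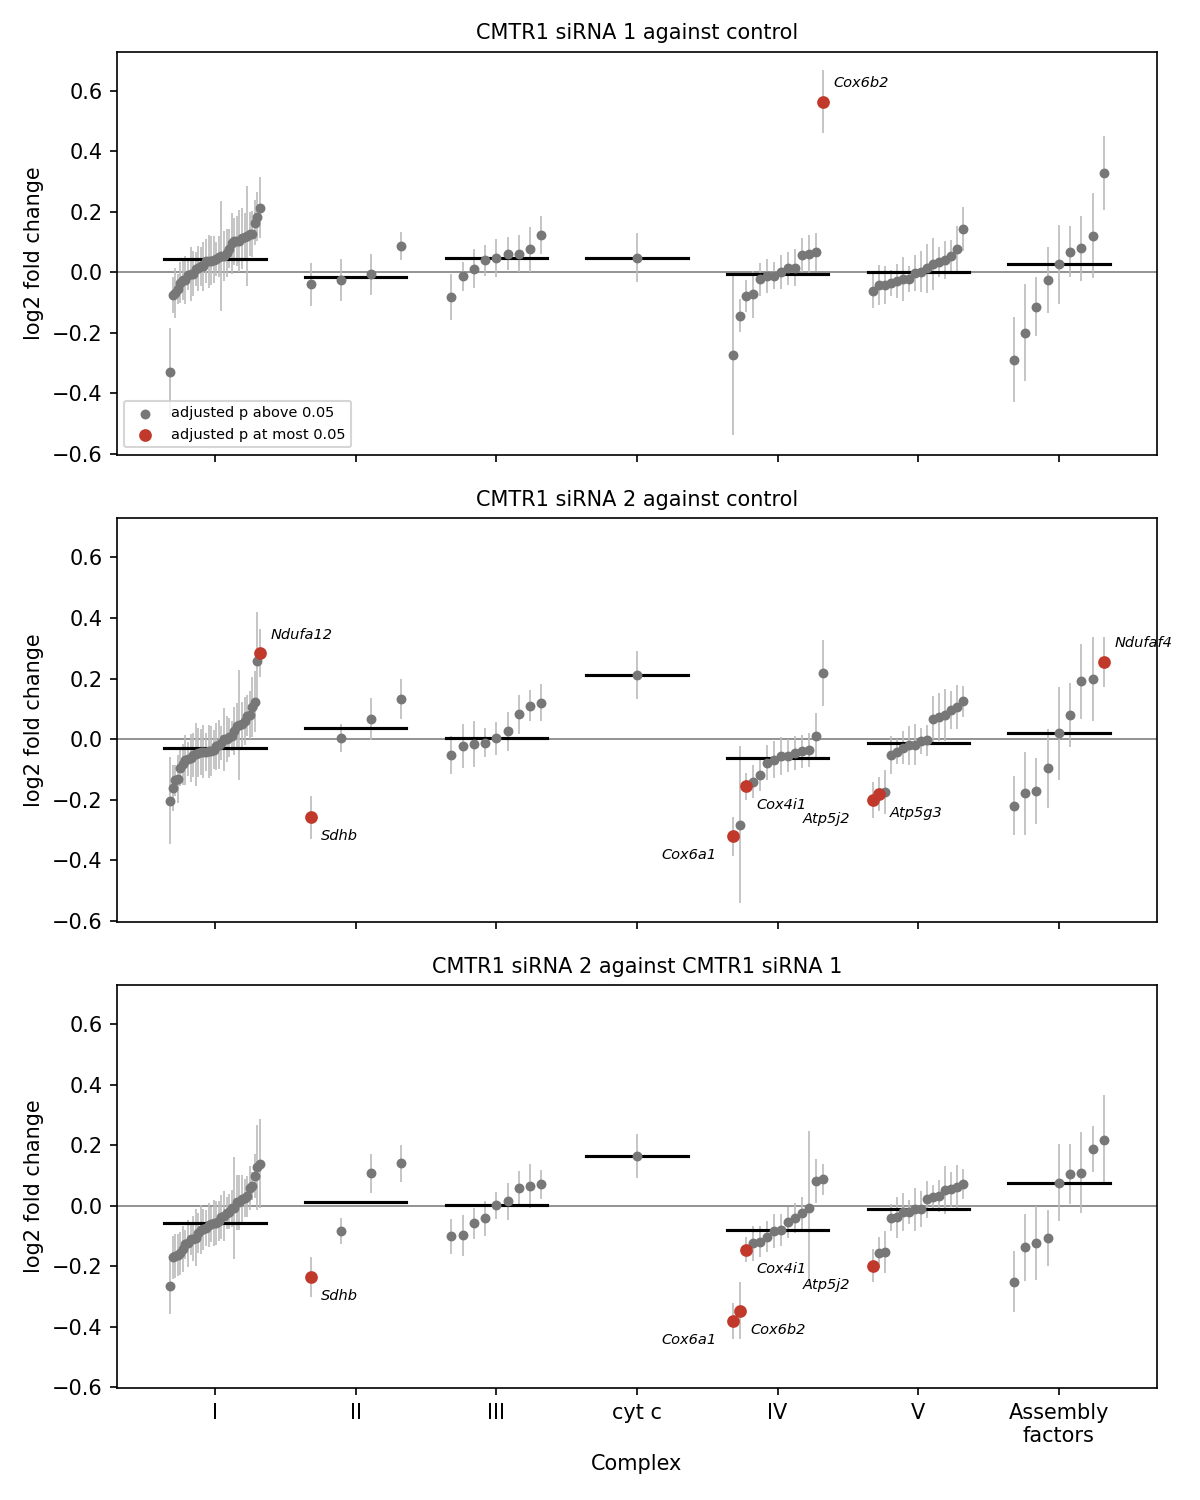
Log2 fold change of each tested member with its SE, ordered within each complex, for the 3 comparisons. Horizontal bars are group medians and red points had an adjusted p of at most 0.05, which are 1 member for siRNA 1, 7 for siRNA 2 and 5 between the siRNAs.

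Complex IV had the lowest median of the complexes with siRNA 2. The CPM of its members summed to 1370, 1347 and 1353 in control, to 1375, 1380, 1346 and 1322 with siRNA 1, and to 1283, 1262, 1239 and 1257 with siRNA 2. All 4 siRNA 2 libraries lay below every other library, and their mean of 1260 ± 18.3 (SD, n = 4) compares with 1356 ± 12.2 (n = 3) in control. Much of this drop lies in Cox4i1 and Cox6a1, the complex IV members called lower with siRNA 2, whose values are given below. The sum therefore does not describe an equal change across the complex. No p is given for this sum over chosen members. Under siRNA 2, 12 of the 14 tested members of complex IV were below 0 on the log2 scale, with a median of −0.06, and this median ran from −0.12 to −0.06 over the 10 alternative settings and from −0.08 to −0.05 when single libraries were left out. Under siRNA 1 the median of the same 14 was −0.0052, with 7 below 0.

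**Figure D4:**
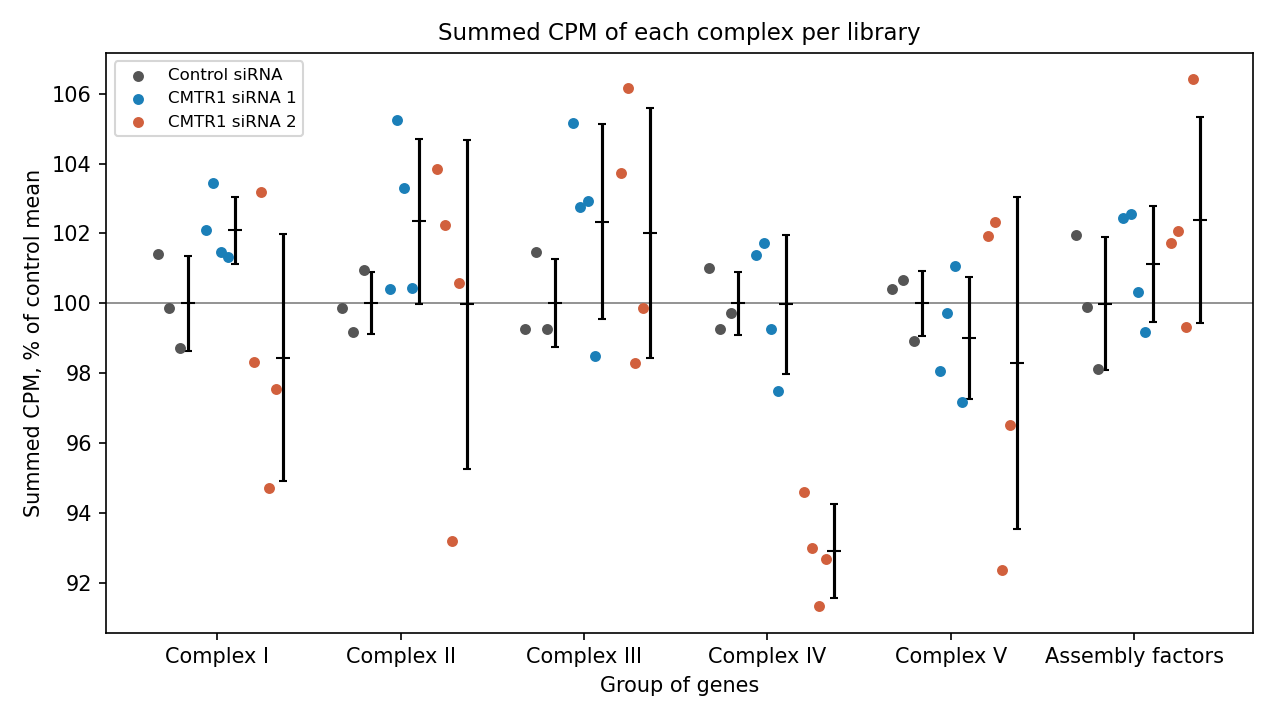
Summed CPM of the members of each complex in each library, as a percentage of the control mean, with group mean and SD beside the points (the axis does not start at 0). For complex IV, all 4 siRNA 2 libraries lie below all 7 others, and in the other groups the ranges of siRNA 2 and control overlap.

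Cox6a1 (ENSMUSG00000041697, chr5:115345642-115348981, minus strand), the common form of subunit VIa, fell most with siRNA 2. Its level was 134, 127 and 146 CPM in control, 160, 153, 127 and 128 CPM with siRNA 1, and 109, 106, 116 and 104 CPM with siRNA 2. All siRNA 2 libraries were below all others, and the siRNA 1 libraries overlapped control. Its siRNA 2 log2 fold change was −0.32 ± 0.06 (SE, adjusted p = 0.000627), and that between siRNA 2 and siRNA 1 was −0.38 ± 0.06 (adjusted p = 2.38e-05). For siRNA 1 it was 0.06 ± 0.06 (95% interval −0.06 to 0.18). The calls held under all 10 alternatives and with each library left out.

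Cox4i1 (ENSMUSG00000031818, chr8:120668222-120674207, plus strand) was the nuclear-encoded complex IV member with the highest control level per kilobase of main transcript, though not with all annotated exons in the denominator. It was at 280, 273 and 288 CPM in control, at 293, 279, 271 and 271 CPM with siRNA 1, and at 258, 250, 250 and 250 CPM with siRNA 2. The siRNA 2 libraries were again below all others. Its log2 fold change was −0.16 ± 0.04 with siRNA 2 (adjusted p = 0.0182) and −0.01 ± 0.04 with siRNA 1, and the siRNAs differed by −0.15 ± 0.04 (adjusted p = 0.0223). Without control replicate 3 the siRNA 2 value was −0.14 (adjusted p = 0.115). The difference between siRNAs was −0.12 (adjusted p = 0.101) without siRNA 1 replicate 1, −0.14 (adjusted p = 0.068) without siRNA 1 replicate 2 and −0.12 (adjusted p = 0.0541) with a GC trend removed. Of its exon bases, 9.94% lie opposite an exon of Emc8, and whether counting used strand is not given in the sources used here.

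Cox6b2 (ENSMUSG00000051811, chr7:4751792-4753094, minus strand) moved the other way. It was at 14.1, 15.5 and 14.9 CPM in control, at 24.8, 22.6, 21.5 and 19.2 CPM with siRNA 1, and at 17.9, 19.1, 16.04 and 16.05 CPM with siRNA 2. Each siRNA 1 library was above every other library, from 144 to 181 reads. The log2 fold change was 0.56 ± 0.11 with siRNA 1, a 1.48-fold rise (adjusted p = 0.000431), and held under all 10 alternatives and with each library left out. With siRNA 2 it was 0.22 ± 0.11 (adjusted p = 0.218), and the siRNAs differed by −0.35 ± 0.09 (adjusted p = 0.0158). That difference was −0.29 (adjusted p = 0.0855) without siRNA 1 replicate 1, −0.33 (adjusted p = 0.0551) without siRNA 1 replicate 2 and −0.31 (adjusted p = 0.0609) without siRNA 2 replicate 4. Its partner isoform Cox6b1 was at 93.7 to 98.1 CPM in control, with log2 fold changes of 0.0009 ± 0.06 for siRNA 1 and −0.08 ± 0.06 for siRNA 2. The share of Cox6b2 among reads of the pair was 13.1%, 13.7% and 13.4% for control libraries, 20.8%, 18.7%, 18.1% and 17.0% for siRNA 1, and 16.7%, 18.4%, 15.1% and 13.9% for siRNA 2.

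Other complex IV members were not called with library-size scaling of all libraries. Cox5a, which with Cox4i1 contacts the catalytic core early in assembly, was at 110 to 119 CPM in control and 102 to 108 CPM with siRNA 2 (log2 fold change −0.12 ± 0.05, adjusted p = 0.157). Cox8a was at 101 to 103 CPM in control and 88.2 to 95.9 CPM with siRNA 2 (−0.14 ± 0.05, adjusted p = 0.0966). Cox5a was called with a gene-length trend removed (−0.17, adjusted p = 0.0465) or a GC trend removed (−0.19, adjusted p = 0.0145), and Cox8a with TMM factors (−0.17, adjusted p = 0.0464). The siRNA 2 libraries of these 2 genes lay below all control libraries. Cox7a2, Cox7a2l, Cox7b and Ndufa4 had siRNA 2 values of −0.06, 0.01, −0.04 and −0.07, each with an SE of at most 0.08. Between the siRNAs Cox7a2 was called without siRNA 1 replicate 1 (−0.18, adjusted p = 0.0478).

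**Figure D5:**
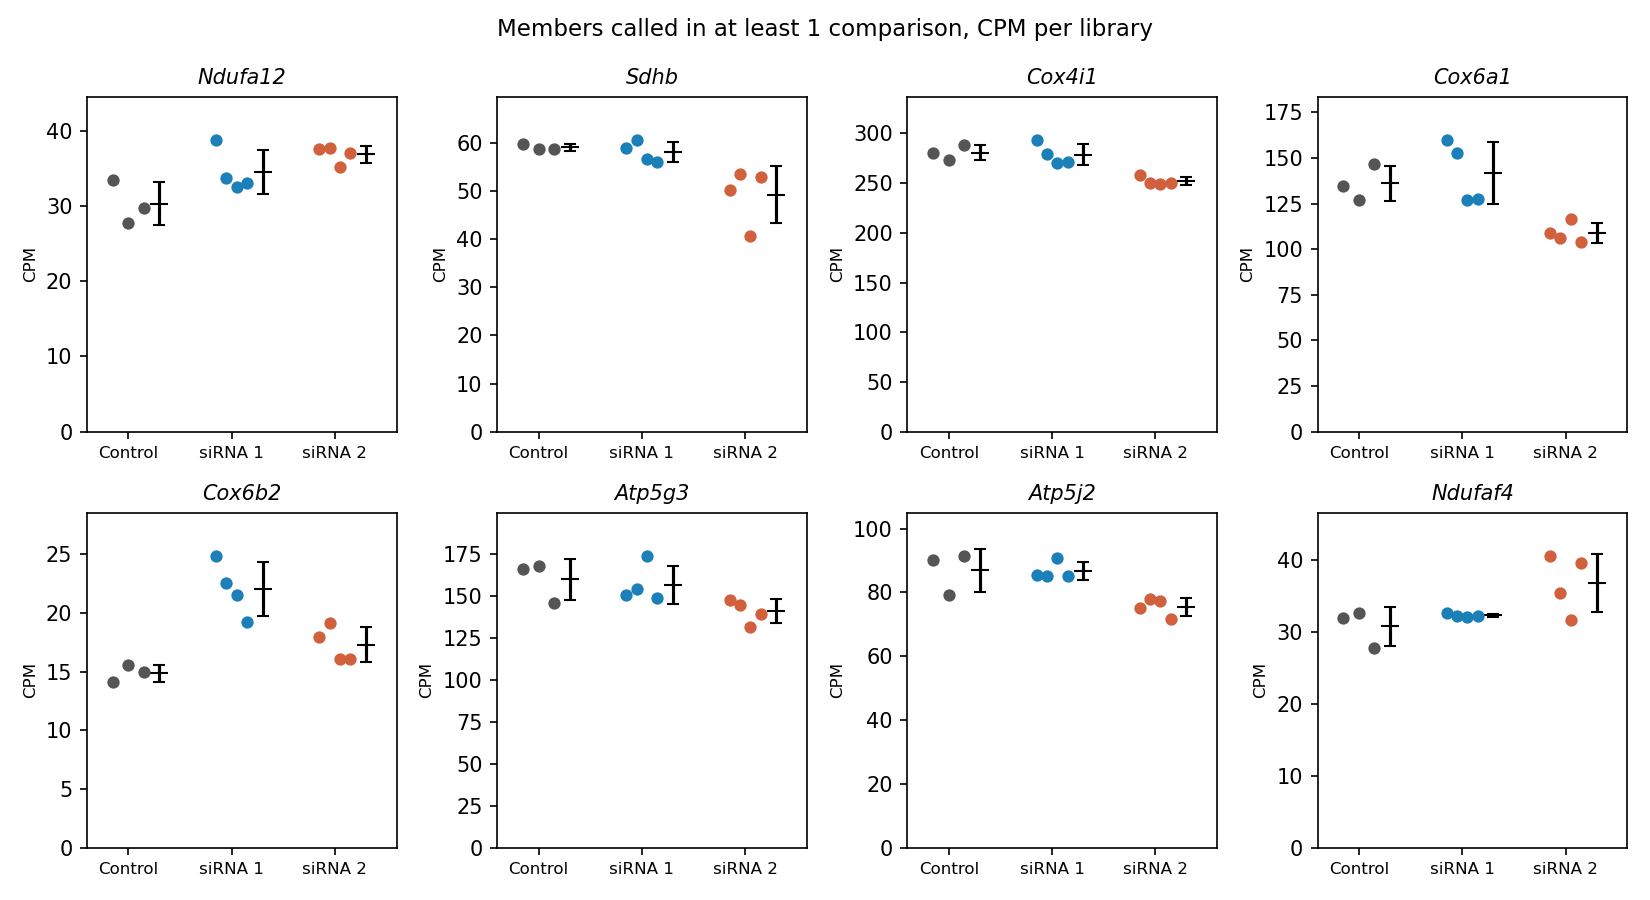
CPM in each library of the 8 members called in at least 1 comparison, with group mean and SD (3 control, 4 siRNA 1 and 4 siRNA 2 libraries, axes from 0). Cox6b2 is highest with siRNA 1, and Sdhb, Cox4i1, Cox6a1 and Atp5j2 are lowest in all 4 siRNA 2 libraries.

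In complex II, Sdhb (ENSMUSG00000009863, chr4:140961203-140979193, plus strand), the iron-sulfur subunit, was at 59.8, 58.7 and 58.7 CPM in control, 58.9, 60.6, 56.7 and 56.1 CPM with siRNA 1, and 50.1, 53.4, 40.6 and 52.8 CPM with siRNA 2. The siRNA 2 libraries were below all others, and replicate 3 was the lowest. The log2 fold change was −0.26 ± 0.07 with siRNA 2 (adjusted p = 0.014) and −0.02 ± 0.07 with siRNA 1, and the siRNAs differed by −0.23 ± 0.07 (adjusted p = 0.0217). Without siRNA 2 replicate 3 these became −0.18 (adjusted p = 0.0755) against control and −0.15 (adjusted p = 0.12) between siRNAs. The difference between siRNAs also missed the threshold without siRNA 1 replicate 1 (−0.23, adjusted p = 0.0534) or replicate 2 (−0.21, adjusted p = 0.0883). The other subunits did not share this direction. Sdha had a log2 fold change of 0.0033 ± 0.05 with siRNA 2, the membrane anchors Sdhc and Sdhd had 0.07 ± 0.07 and 0.13 ± 0.07, and none of these passed the test.

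In complex V the 5 subunits of the F1 head, where ATP is made, had siRNA 2 log2 fold changes between −0.05 and −0.0046. Atp5b was at 1101 to 1103 CPM in control and 1004 to 1133 CPM with siRNA 2, with −0.04 ± 0.04, and Atp5a1 had −0.0060 ± 0.04. The members called belong to the membrane part. Atp5j2 (ENSMUSG00000038690, chr5:145183698-145192062, minus strand), subunit f, was at 90.1, 79.2 and 91.3 CPM in control, 85.5, 85.1, 90.9 and 85.1 CPM with siRNA 1, and 75.1, 78.0, 77.2 and 71.7 CPM with siRNA 2. All siRNA 2 libraries were below all others. The log2 fold change with siRNA 2 was −0.20 ± 0.06 (adjusted p = 0.024), and the difference from siRNA 1 was −0.20 ± 0.06 (adjusted p = 0.0192). The call against control was lost without control replicate 1 (−0.17, adjusted p = 0.113), control replicate 3 (−0.16, adjusted p = 0.159), siRNA 2 replicate 1 (−0.20, adjusted p = 0.0542) or siRNA 2 replicate 4 (−0.18, adjusted p = 0.0712). The call between siRNAs was lost without siRNA 1 replicate 3 (−0.17, adjusted p = 0.0621), siRNA 2 replicate 1 (−0.20, adjusted p = 0.0502) or siRNA 2 replicate 4 (−0.17, adjusted p = 0.0731).

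Atp5g3 (ENSMUSG00000018770, chr2:73908447-73911326, minus strand), the main source of subunit c, was at 166, 168 and 146 CPM in control, 151, 154, 174 and 149 CPM with siRNA 1, and 148, 145, 132 and 140 CPM with siRNA 2. The siRNA 2 libraries overlapped control, since control replicate 3 was lower than siRNA 2 replicate 1. Its log2 fold change was −0.18 ± 0.06 with siRNA 2 (adjusted p = 0.03) and −0.03 ± 0.06 with siRNA 1, and the difference between the siRNAs was −0.15 ± 0.05 (adjusted p = 0.0603). That difference was called under 4 of the 10 alternatives, which were no filter, a length or GC trend removed, and Gm26917 left out of library size (−0.18 to −0.15, adjusted p from 0.0357 to 0.0488). Without control replicate 1, control replicate 2, siRNA 2 replicate 3 or siRNA 2 replicate 4 the siRNA 2 value was −0.16, −0.15, −0.15 and −0.18, with adjusted p of 0.134, 0.186, 0.0825 and 0.0544. The other genes of subunit c, Atp5g1 and Atp5g2, had −0.03 ± 0.06 and −0.18 ± 0.07 (adjusted p = 0.811 and 0.129). Atp5g2 was called with a gene-length trend removed or without siRNA 2 replicate 2 (−0.26 to −0.22, adjusted p from 0.0192 to 0.0453).

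Complex I, the largest complex, had 22 of 36 members below 0 with siRNA 2 (median −0.03) and 10 with siRNA 1 (median 0.04). Leaving out single libraries moved the siRNA 2 median from −0.0007, without control replicate 1, to −0.05, without siRNA 2 replicate 2, with 19 to 28 members below 0. Its 7 nuclear core subunits include those that hold the flavin and the iron-sulfur clusters, and Ndufs1 and Ndufv1 among them had siRNA 2 log2 fold changes of 0.0098 ± 0.05 and −0.07 ± 0.06. Ndufa12 (ENSMUSG00000020022, chr10:94198720-94221443, plus strand), an accessory subunit of the peripheral arm, was the member called. It was at 33.4, 27.8 and 29.7 CPM in control, 38.7, 33.8, 32.5 and 33.0 CPM with siRNA 1, and 37.5, 37.7, 35.2 and 37.0 CPM with siRNA 2. All siRNA 2 libraries were above control, and siRNA 1 overlapped both groups. Its log2 fold change was 0.28 ± 0.08 with siRNA 2 (adjusted p = 0.0172) and 0.18 ± 0.08 with siRNA 1 (adjusted p = 0.22). DESeq2 gave 0.25 with an adjusted p of 0.0828 for siRNA 2, and the value was 0.22 (adjusted p = 0.149) without control replicate 2 and 0.27 (adjusted p = 0.0733) without control replicate 3. Of its 75-nt words, 14.6% also occur in Gm15920.

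Ndufaf4 (ENSMUSG00000028261, chr4:24898083-24905001, plus strand), an assembly factor of complex I, was at 31.9, 32.7 and 27.7 CPM in control, 32.6, 32.3, 32.1 and 32.2 CPM with siRNA 1, and 40.5, 35.4, 31.7 and 39.5 CPM with siRNA 2. One siRNA 2 library, replicate 3, lay within the control range. Ndufaf4 had a log2 fold change of 0.25 ± 0.08 with siRNA 2 (adjusted p = 0.0401). This call was lost with TMM factors (adjusted p = 0.0703), DESeq2 (adjusted p = 0.154), and removal of a gene-length trend (adjusted p = 0.106) or a GC trend (adjusted p = 0.14). It was also lost without control replicates 1, 2 or 3 (0.28, 0.30 and 0.19, with adjusted p of 0.0609, 0.052 and 0.251) or siRNA 2 replicates 1 or 4 (0.21 and 0.22, with adjusted p of 0.15 and 0.121). The other 8 assembly factors were not called, except Ndufaf7 with a GC trend removed (siRNA 2, −0.28, adjusted p = 0.0425), and Ndufaf3 had the highest siRNA 1 value among them, 0.33 ± 0.12 (adjusted p = 0.123).

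None of the 9 members of complex III was called by edgeR in any comparison, nor by DESeq2 or exactTest. With siRNA 2, 1 of the 9 had an unadjusted p under 0.05, as had 3733 of the 16073 genes tested. This complex hands electrons from ubiquinol to cytochrome c. Uqcrfs1, the Rieske iron-sulfur protein, had 0.03 ± 0.06 with siRNA 2, the core protein Uqcrc1 had −0.01 ± 0.05, and Cyc1, cytochrome c1, had 0.11 ± 0.05 (adjusted p = 0.173). Cycs was at 35.3, 39.1 and 34.6 CPM in control, 33.7, 41.6, 37.6 and 37.0 CPM with siRNA 1, and 43.5, 45.6, 36.4 and 42.8 CPM with siRNA 2. The last group overlapped control in replicate 3 alone, and its log2 fold change of 0.21 ± 0.08 did not pass the test (adjusted p = 0.0837). Without that library it was 0.27 (adjusted p = 0.0181).

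Promoter sequence was examined as a feature that the choice of members did not use. RefSeq windows of 300 bases (250 before and 50 after the start) were available for 75 members by symbol, and short motifs of factors known to act at respiratory genes were searched on either strand. The NRF1 letters GCGCATG were in 21.3% of member windows, against 8.09% of windows of protein-coding genes tested and 4.41% of all windows. The ETS letters CCGGAAG were in 18 of 75 member windows, 19.6% of those tested and 9.93% of all, the ERR letters AAGGTCA in 8 of 75, 3.77% and 5.38%, the YY1 letters AAGATGG in 14.7%, 8.20% and 7.28%, and the SP1 letters GGGCGG in 45.3%, 69.9% and 38.2%. The first transcribed base, the site that CMTR1 methylates, was G at 51.2%, A at 25%, C at 17.5% and T at 6.25% of 80 member windows as annotated, and G at 46.8%, A at 29.1%, C at 14.7% and T at 9.35% of the windows of protein-coding genes tested. These are descriptions of letters in annotated windows, without a test.

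The 100 bases before the RefSeq start of 5 called members are shown to set lowered genes beside Cox6b2. They are from RefSeq (GRCm38.p6), 5′ to 3′ on the strand of the gene, at chr4:140961171-140961270 (Sdhb, plus), chr5:115348959-115349058 (Cox6a1, minus), chr2:73911327-73911426 (Atp5g3, minus), chr5:145191542-145191641 (Atp5j2, minus) and chr7:4753095-4753194 (Cox6b2, minus). The RefSeq start can lie inside the GENCODE gene, so that 100 of the Atp5j2 bases, 68 of the Sdhb bases and 23 of the Cox6a1 bases shown fall within the gene coordinates given above. Capitals mark a searched motif or its reverse complement, which are NRF1 in Sdhb, SP1 and ETS in Cox6a1 and ERR in Atp5g3.
Sdhb: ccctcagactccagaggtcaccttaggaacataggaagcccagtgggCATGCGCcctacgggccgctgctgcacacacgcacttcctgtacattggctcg
Cox6a1: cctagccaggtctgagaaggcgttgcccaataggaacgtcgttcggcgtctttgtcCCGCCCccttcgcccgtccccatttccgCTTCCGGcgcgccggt
Atp5g3: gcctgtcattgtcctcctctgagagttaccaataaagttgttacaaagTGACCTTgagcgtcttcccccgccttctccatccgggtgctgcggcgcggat
Atp5j2: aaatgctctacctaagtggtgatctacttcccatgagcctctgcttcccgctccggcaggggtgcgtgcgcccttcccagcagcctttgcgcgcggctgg
Cox6b2: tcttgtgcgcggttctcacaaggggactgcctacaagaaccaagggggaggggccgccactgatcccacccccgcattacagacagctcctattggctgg
No motif was present in all 4 of the lowered genes shown. In Atp5j2 and Cox6b2 none of the searched letters fell within the 100 bases shown, while the wider 300 bases held YY1 in Atp5j2 and SP1 in Cox6b2. The wider windows of Sdhb and Cox6a1 each held ETS, NRF1 and SP1, and that of Atp5g3 held ERR.

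The subunits encoded in the mitochondrial genome were listed beside the nuclear ones. Of 13 such genes 7 were tested, while mt-Nd3, mt-Nd4l, mt-Co2, mt-Co3, mt-Atp6 and mt-Atp8 were below the filter. Mean control levels of these 6 were at most 0.123 CPM, while mt-Co1 was at 3717 CPM. Reads that mapped to more than 1 place were set aside in counting, and sequence shared by these 6 genes was not examined. Their low counts are therefore not read as absence, and the sum that follows covers counted reads only. The summed level of the list was 12394 to 12995 CPM in control, 13113 to 13481 CPM with siRNA 1 and 10897 to 13033 CPM with siRNA 2. Between the siRNAs, 5 of the 7 were lower with siRNA 2 than with siRNA 1, with log2 differences from −0.18 to −0.13. These were mt-Nd1, mt-Nd4 and mt-Nd5 of complex I, mt-Cytb of complex III and mt-Co1 of complex IV. DESeq2 called 4 genes of the list in this comparison, and the libraries of the siRNAs did not overlap for 2 of the 7. The medians of the 7 against control were 0.08 for siRNA 1 and −0.07 for siRNA 2. Against control siRNA 2 lowered mt-Nd1 (−0.13 ± 0.04, adjusted p = 0.0447), a call that exactTest did not make.

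The other lists of the pathway are read against the same backgrounds (4.67% of genes called with siRNA 1, 9.72% with siRNA 2 and 7.44% between the siRNAs). An unadjusted p under 0.05 was reached by 2698, 3733 and 3395 of the 16073 genes tested, in the same order. Of 42 tested assembly factors outside the naming rule, none was called by edgeR, DESeq2 or exactTest in any comparison, with 2, 8 and 7 at an unadjusted p under 0.05 in the order siRNA 1, siRNA 2 and siRNA 2 against siRNA 1. Among 13 tested regulators of respiratory genes, Polrmt, the mitochondrial RNA polymerase, differed between the siRNAs (−0.24 ± 0.07, adjusted p = 0.0261). Of the 14 citric acid cycle genes, Dlst, a subunit of 2-oxoglutarate dehydrogenase, rose with siRNA 1 (0.18 ± 0.05, adjusted p = 0.024, not called by DESeq2), and Idh3a, of isocitrate dehydrogenase, was higher with siRNA 2 than with siRNA 1 (0.25 ± 0.06, adjusted p = 0.00267). With siRNA 2, 10.5% of the 19 ubiquinone genes and 33.3% of the 6 carriers were called. Of the genes of ubiquinone synthesis and electron donation, Coq6, a ubiquinone hydroxylase, rose with siRNA 1 (0.32 ± 0.09, adjusted p = 0.0278, not called by DESeq2) and siRNA 2 (0.37 ± 0.09, adjusted p = 0.00478), and Prodh, proline dehydrogenase, fell with siRNA 2 (−0.34 ± 0.07, adjusted p = 0.000644). Of 6 carriers, siRNA 2 lowered the phosphate carrier Slc25a3 (−0.20 ± 0.04, adjusted p = 0.00123) and the ADP/ATP carrier Slc25a4 (−0.31 ± 0.05, adjusted p = 8.59e-05). DESeq2 called 3 carriers with siRNA 2, adding Slc25a5 (−0.15), and 2 with siRNA 1, Slc25a3 (−0.14) and Slc25a5 (−0.15), where edgeR called none, with 3 at an unadjusted p under 0.05. Slc25a4 was at 128, 133 and 128 CPM in control, 126, 124, 136 and 122 CPM with siRNA 1, and 108, 104, 95.9 and 109 CPM with siRNA 2, so the siRNA 2 libraries were below all others.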

How the data were processed

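RNA-seq libraries were rRNA-depleted and directional. Per the labels and the methods, the authors trimmed reads with Cutadapt, aligned them to GRCm38 with STAR, removed PCR duplicates with Picard, and counted reads per gene with featureCounts. The deposited values are counts, whole numbers for 54838 Ensembl genes in each of 11 libraries. Summary lines at the end of the files were set aside, which in 10 libraries list 5314618 to 6998875 reads in no gene. Those lines are in the style of HTSeq, while the methods name featureCounts, so the counting tool is uncertain. The file of siRNA 2 replicate 4 has no such lines.

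Counts were scaled by library size and tested with edgeR 4.0.16 (R 4.3.3) by the quasi-likelihood test over all 11 libraries in 1 fit. Benjamini-Hochberg adjustment covered the 16073 genes with more than 1 CPM in at least 4 libraries, and genes were called at 0.05. SE is the log2 fold change divided by the root of F, and intervals are ± 1.96 SE. The code was tested on simulated data. Annotation was GENCODE M21. Alternatives were TMM factors, DESeq2 1.42.0, exactTest, other filters, 2 groups only, a replicate block, length and GC trends, Gm26917 (4.87% to 6.34% of counts) left out of library size, narrower member lists, and each library left out. The labels share replicate numbers, and the main fit has no block. Over all genes tested, deviations of same-numbered libraries from their group means had a mean r of 0.009. Each gene counted equally there, low-count genes included, so shared changes in some genes could be missed. The mean log2 CPM of the ESC markers was lowest in replicate 1 of control (7.71), siRNA 1 (7.44) and siRNA 2 (7.49). Whether same-numbered libraries were prepared together is not given in the labels and was not tested.

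The members, lists and motifs were chosen with earlier results of these data known, so list counts and medians carry no test. Members were named if called, outside the control range in the same direction for both siRNAs, highest or lowest per complex, core subunits, isoforms, or below the filter. Other genes were named if called within a list.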

Additional observations from a re-analysis of the deposited data

Results flagged for a closer look

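The 8 called members, the summed levels and the read totals, each in both siRNA groups of 4 libraries, gave 34 groups to examine for a library far from the rest, and 2 stood out, where chance gives about 1 in 20. Cox4i1 was at 258 CPM in siRNA 2 replicate 1, above the other 3 libraries of that group. Atp5j2 was at 90.9 CPM in siRNA 1 replicate 3, also above its group.

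The siRNAs differed from each other for 5 members in the direct test (edgeR, adjusted over all genes), with log2 differences, siRNA 2 less siRNA 1, of −0.23 for Sdhb, −0.15 for Cox4i1, −0.38 for Cox6a1, −0.35 for Cox6b2 and −0.20 for Atp5j2. In the same test the mitochondrially encoded mt-Nd1 (−0.16), mt-Nd4 (−0.18), mt-Nd5 (−0.14), mt-Cytb (−0.13) and mt-Co1 (−0.16) were lower with siRNA 2, as were Polrmt (−0.24) and Slc25a4 (−0.28), and Idh3a was higher (0.25).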

How the results depend on the processing

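Without leaving out libraries, 72 summaries were recomputed (the count of called members and the median log2 fold change of members in 3 comparisons). Of these, 67 stayed within 1.5 times (counts) or the spread between libraries (medians). For siRNA 2 against control that spread was an SD of 0.0484, wider than the median of −0.021 itself. A median of −0.0628 with a GC trend removed thus counted as unchanged. For siRNA 1 the median was 0.0059 with TMM factors, −0.0005 with DESeq2 and −0.0083 with a GC trend removed, where 2 members were called, with Cox6c lower. For siRNA 2 the replicate block left 4 members called, without Atp5g3, Atp5j2 and Ndufaf4, and this block changed no call in the other comparisons. Leaving out each library gave 1 called member and medians from 0.0134 to 0.0292 for siRNA 1, 3 to 8 called and medians from −0.0399 to 0.0017 for siRNA 2, and 2 to 6 called and medians from −0.0557 to −0.0251 between the siRNAs. The siRNA 2 count was 4 without control replicate 1, control replicate 2 or siRNA 2 replicate 4 and 3 without control replicate 3. The count between siRNAs was 3 without siRNA 1 replicate 1 or siRNA 2 replicate 4 and 2 without siRNA 1 replicate 2. Without siRNA 2 replicate 3 the splits became 3 lower and 4 higher against control and 4 lower and 2 higher between the siRNAs. The cause was not tested. No direction of a called member reversed. The widest SE, 0.26, was that of Cox7a1, at 1.56 to 2.84 CPM, and how much of it is counting error was not tested.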
